A study of Homo sapiens with 38 samples.

Results

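The MYC network is a family of paired DNA-binding proteins, and 10 of its genes were followed here by name among 20136 protein-coding genes of the annotation: MYC, MYCN, MYCL, MAX, MXD1, MXD4, MXI1, MNT, MLX and MGA. Each gene was scored for peaks within 1.5 kb of every annotated transcript start (its start windows, merged where they overlap) and over its body, and MYC also over the 2 Mb that follow it. The data were 56 peak lists from 38 CUT&Tag libraries of K562 cells, a human chronic myelogenous leukemia line. CUT&Tag cuts and tags the DNA around an antibody-bound histone mark in intact nuclei. The 2 marks were H3K27ac (31 libraries), a mark of promoters and enhancers in use, and H3K27me3 (7 libraries), which the Polycomb machinery places on silenced genes.

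The benchmark set held 6 H3K27ac libraries, a pair of replicates for each of the antibodies ab177178 (1:100), ab4729 (1:100) and Diagenode (1:50), and 2 H3K27me3 replicates with the antibody CST-9733 (1:100), all after 15 PCR cycles with SDS extraction. A TSA set held 4 H3K27ac libraries, also after 15 cycles with SDS extraction, made with trichostatin A, a histone deacetylase inhibitor, in the CUT&Tag solutions (ab177178 and ab4729 at 1:100, Diagenode at 1:100 and 1:50). A first set without TSA, at the same cycles and extraction, held 5 H3K27ac libraries (ab177178, ab4729 and Active Motif at 1:100, Diagenode at 1:50 and 1:100) and 1 H3K27me3 library. The PCR and extraction set crossed 13 or 11 cycles with column or SDS extraction, in 16 H3K27ac libraries from 4 antibodies (ab177178, ab4729 and Active Motif at 1:100, Diagenode at 1:50) and 4 H3K27me3 libraries (CST-9733 at 1:100). Benchmark, first and TSA libraries had a list from MACS2 and one from SEACR, while the PCR and extraction libraries had SEACR lists alone. Each mark had its own calling settings, so mark and settings cannot be told apart in any comparison of the marks.

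MYC, MYCN and MYCL are the activating arm of the network, and each binds the E-box CACGTG only as a pair with MAX. MXD1, MXD4, MXI1 and MNT compete for MAX and recruit SIN3 corepressors. MGA also pairs with MAX and belongs to a variant Polycomb complex. MLX pairs with several of the repressors and with the glucose-sensing proteins MLXIP and MLXIPL. MYC is highly expressed in many leukemias and is controlled in blood cells by distant enhancers on its downstream side, whereas MYCN and MYCL are known mainly from neural and lung tissue.

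Across the benchmark libraries, 9 of the 10 genes had an H3K27ac peak at a start in all 6 libraries by MACS2 and 8 of the 10 by SEACR. Among all protein-coding genes the same was true of 43.9% by MACS2 and 36.7% by SEACR. H3K27me3 peaks lay at a start in both benchmark libraries for 2 of the 10 genes, MYCN and MYCL, by either caller, against 26.3% of all protein-coding genes by MACS2 and 25.9% by SEACR. The list thus divided into MYCN with H3K27me3 alone, MYCL with both marks, and the other 8 genes with H3K27ac in every benchmark library and at most a trace of H3K27me3. That trace was a single MACS2 peak over 3.08% of the MXI1 start windows in CST-9733 replicate 1.

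**Figure D1:**
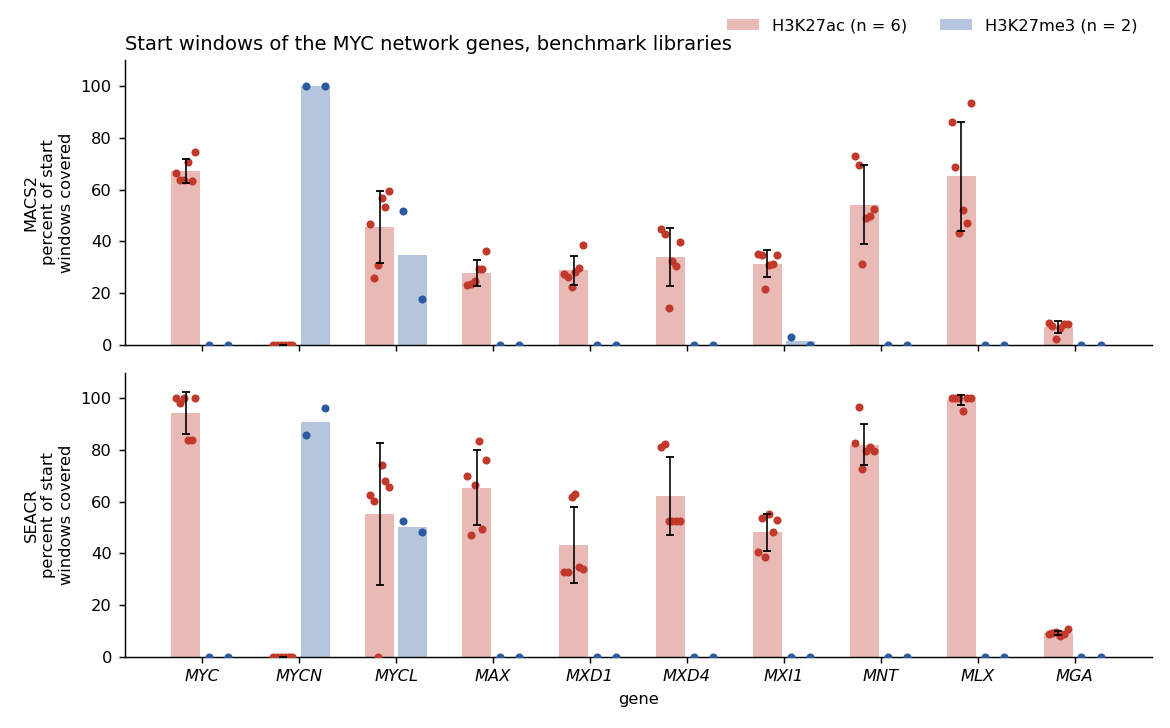
Percent of each gene's start windows covered by H3K27ac peaks (red, 6 libraries) and H3K27me3 peaks (blue, 2 libraries) in the benchmark set, by MACS2 above and SEACR below. Bars are means, points are libraries and error bars are 1 SD of the H3K27ac libraries. MYCN carries blue alone, MYCL both colours and the other 8 genes red, with a trace of blue at MXI1 by MACS2.

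E-boxes are the sequence that dimers of the network bind, so the 250 bases before the first start of every start window were searched for CACGTG, which reads the same on both strands. Of 26 member windows, 4 held it, those of MAX, MXD4, MNT and MLX, against 5.04% of the 51070 start windows of all protein-coding genes. Relative to the first start the match began at position -238 in MXD4, -149 in MNT and -22 in MLX. Over the 4 windows the 6 bases themselves were under an H3K27ac MACS2 peak in 1 to 6 of 6 benchmark libraries and under a SEACR peak in 5 or 6. MNT and MLX had 6 of 6 by MACS2, MXD4 had 5 of 6 and MAX had 1 of 6. By SEACR MAX had 5 of 6 and the other windows 6 of 6. No benchmark H3K27me3 peak covered any of the 4. These are descriptions of letters in a window, not of binding. The windows of MXD4, MNT and MLX are given 5′ to 3′ with CACGTG in capitals, at chr4:2263837-2264086 (minus strand) for MXD4, chr17:2304399-2304648 (minus) for MNT and chr17:40718840-40719089 (plus) for MLX, all on GRCh37, the build of the peaks.
MXD4: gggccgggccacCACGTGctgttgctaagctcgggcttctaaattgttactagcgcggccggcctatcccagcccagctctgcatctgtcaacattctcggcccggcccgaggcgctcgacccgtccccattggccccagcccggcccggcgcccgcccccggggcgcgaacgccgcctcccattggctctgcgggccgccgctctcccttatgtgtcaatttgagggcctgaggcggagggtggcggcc
MNT: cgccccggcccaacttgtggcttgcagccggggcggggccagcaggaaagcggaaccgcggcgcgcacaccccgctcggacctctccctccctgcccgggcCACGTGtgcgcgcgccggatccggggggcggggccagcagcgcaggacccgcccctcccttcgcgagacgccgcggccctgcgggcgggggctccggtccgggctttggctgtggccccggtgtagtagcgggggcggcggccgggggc
MLX: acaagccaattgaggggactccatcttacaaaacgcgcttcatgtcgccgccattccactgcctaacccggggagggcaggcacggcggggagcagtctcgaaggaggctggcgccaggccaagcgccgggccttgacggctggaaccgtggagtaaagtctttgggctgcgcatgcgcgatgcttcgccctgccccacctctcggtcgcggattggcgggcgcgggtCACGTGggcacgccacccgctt

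MYCL and MYCN, the genes with H3K27me3, are shown in the same way because Polycomb marks usually sit on DNA rich in CG dinucleotides, which are in capitals here. The MYCL window, chr1:40367929-40368178 (minus strand, GRCh37), held 23 CG and the MYCN window, chr2:16080422-16080671 (plus strand), held 11, against medians of 9.5 over the 26 member windows and 4 over all windows. Richness in CG did not set these genes apart within the list, since the MNT, MLX and MXD4 windows given with their E-boxes held 35, 26 and 26. Neither MYCL nor MYCN had CACGTG in its window.
MYCL: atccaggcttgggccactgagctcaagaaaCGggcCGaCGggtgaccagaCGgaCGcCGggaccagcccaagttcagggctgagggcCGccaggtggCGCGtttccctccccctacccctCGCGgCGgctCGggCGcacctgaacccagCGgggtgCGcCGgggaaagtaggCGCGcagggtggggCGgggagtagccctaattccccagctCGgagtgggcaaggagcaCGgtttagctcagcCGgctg
MYCN: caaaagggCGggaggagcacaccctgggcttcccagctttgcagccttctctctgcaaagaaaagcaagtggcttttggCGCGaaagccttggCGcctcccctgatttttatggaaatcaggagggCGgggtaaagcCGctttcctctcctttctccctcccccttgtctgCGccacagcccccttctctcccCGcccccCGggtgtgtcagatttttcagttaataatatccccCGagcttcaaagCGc

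MYCN, the family member of neural crest and neuroblastoma, was covered by H3K27me3 only. Its start windows were covered to 100% by MACS2 in both benchmark libraries and in the first CST-9733 library, with the highest fold over background at 5.51, 6.55 and 4.69. SEACR covered 85.7% and 96.2% in the benchmark libraries and 77.9% in the first library. In the PCR and extraction set the SEACR values were 30.0% and 52.5% after 13 cycles (column and SDS) and 32.04% and 20.3% after 11 cycles (column and SDS). Every H3K27me3 library therefore called it, while none of the 31 H3K27ac libraries did by SEACR and none of the 15 with a MACS2 list. A peak at a start in all 4 H3K27me3 libraries of the PCR and extraction set occurred for 12.4% of all protein-coding genes. The antisense gene MYCNOS starts 682 bp from a MYCN start and lies in the same windows, so peaks there belong to both.

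MYCL carried both marks at its start, side by side with a short stretch in common. In H3K27ac libraries MACS2 covered 46.7% and 25.9% of the start windows with ab177178, 30.8% and 56.7% with ab4729 and 53.3% and 59.3% with Diagenode (replicates 1 and 2). In H3K27me3 libraries it covered 51.8% and 17.7%. SEACR gave H3K27ac values of 62.4%, 60.4%, 0%, 74.2%, 68.0% and 65.8% in the same order, and H3K27me3 values of 52.4% and 48.1%. The single SEACR list without a MYCL peak, ab4729 replicate 1, had 2 MACS2 peaks there, with a highest fold of 8.00.

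H3K27ac lay mainly on the gene side of the first MYCL start and H3K27me3 mainly upstream of it. Of 3340 bp of start windows, 2025 bp were under an H3K27ac MACS2 peak and 1730 bp under an H3K27me3 MACS2 peak in at least 1 library, and 415 bp were under both. With SEACR these lengths were 2478, 1956 and 1094 bp. The bases under H3K27ac in at least 4 libraries and H3K27me3 in both ran from 40367731 to 40368040 on chromosome 1 by MACS2, across the first start at 40367928, and from 40367680 to 40368173 by SEACR. The H3K27me3 peaks were weak beside those of MYCN, with folds of 3.11 and 3.39 against 5.51 and 6.55. Their MACS2 −log10 q at MYCL was 1.90 to 2.28, against 6.46 to 39.2 for the benchmark H3K27ac peaks over the gene, each under its own settings. The H3K27me3 calls at MYCL therefore rest on peaks of low significance. MYCL was thus the 1 member with H3K27ac in all 6 libraries and H3K27me3 in both by MACS2, and no member met this by SEACR, against 3.11% and 2.02% of all protein-coding genes. With H3K27ac asked for in at least 5 libraries it was the 1 member by either caller, against 3.77% of genes by MACS2 and 2.47% by SEACR. Cells were measured in bulk, so both marks on one chromosome and each mark on different cells or alleles cannot be told apart.

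**Figure D2:**
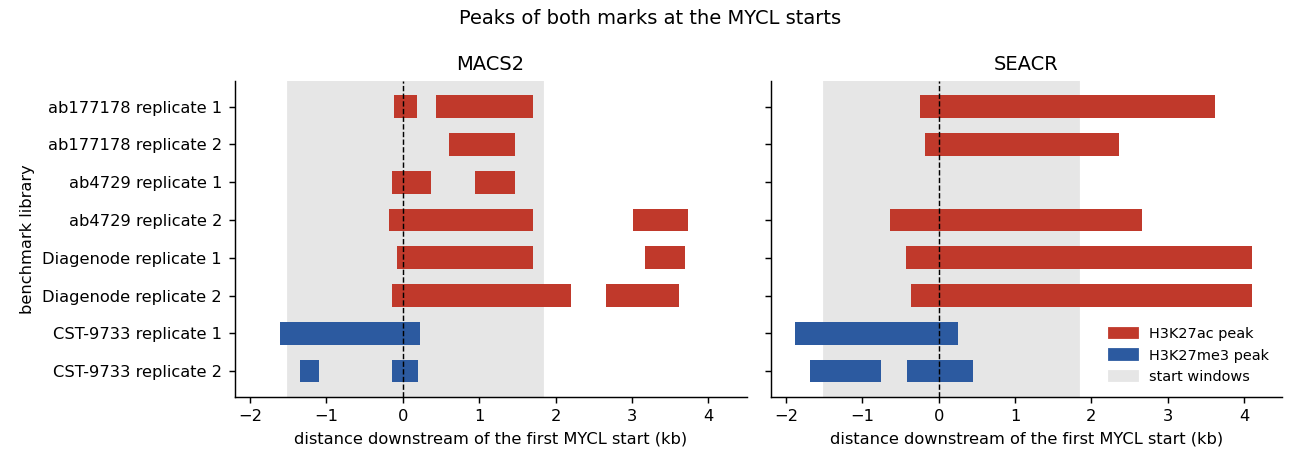
Peaks over MYCL in each benchmark library by distance from the first MYCL start in kb (negative is upstream), with H3K27ac in red, H3K27me3 in blue and the start windows in grey. The 2 marks meet around the start, where 310 bp by MACS2 and 494 bp by SEACR were under H3K27ac in at least 4 libraries and H3K27me3 in both.

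Outside the benchmark set few libraries called a mark at MYCL. None of the 5 first H3K27ac libraries had a peak at its start by either caller, 1 of 4 TSA libraries had one by MACS2 (Diagenode 1:100, 9.73% of the windows) and none of the 16 PCR and extraction libraries had one. H3K27me3 was called there in the first CST-9733 library, over 49.5% of the windows by MACS2 and 32.9% by SEACR, and in none of the 4 PCR and extraction libraries. The H3K27me3 lists of the PCR and extraction set covered 46.4 to 63.3 Mb of the genome, against 200 and 229 Mb in the benchmark SEACR lists, and the part of this difference in the lost MYCL calls was not tested.

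MAX, the partner that every MYC and MXD protein needs, had H3K27ac over 22.9% to 36.2% of its start window by MACS2 and 47.0% to 83.4% by SEACR (median 68.2%) in the 6 benchmark libraries. A second H3K27ac region lay inside the gene, 58.9 kb downstream of the first start, at 65507217 to 65513869 on chromosome 14 by SEACR. It was called in all 6 benchmark libraries and in 18 of the 25 other H3K27ac libraries, against 3 of 25 for the region at the start. MAX overlaps FNTB and the read-through gene CHURC1-FNTB at that place, so the peak cannot be given to one of them (both genes were named after the values were seen). No H3K27me3 library had a peak anywhere in the MAX region.

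Of the repressive partners, MXD1 was the most constant. Its middle start window, around 70142173 to 70142264 on chromosome 2, carried a SEACR H3K27ac peak in all 31 libraries, those of the Active Motif antibody included, and a MACS2 peak in all 6 benchmark libraries and 7 of the 9 other H3K27ac libraries with a MACS2 list. The highest MACS2 fold there was 50.0 and 54.4 with ab177178, 27.6 and 48.1 with ab4729 and 40.4 and 55.4 with Diagenode. For comparison, MYC folds in the same libraries were 22.02 and 20.9, 26.2 and 26.8, and 18.8 and 38.3, so the MXD1 peak stood above the MYC peak in each of the 6. The middle window was also under an H3K27me3 SEACR peak in 2 of the 5 H3K27me3 libraries outside the benchmark set. The upstream MXD1 start window, which also holds a start of the splicing gene SNRNP27, had no peak of either mark in any list. A peak at a start in all 16 H3K27ac libraries of the PCR and extraction set occurred for 1.9% of all protein-coding genes.

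MXD4, MXI1 and MNT had H3K27ac at a start in all 6 benchmark libraries by both callers, at some starts and not at others. MXD4 was called in all 6 at the first of its 2 windows, and at the second by SEACR in 2 libraries only. MXI1 was called in all 6 at the 2 upstream windows of its 4 and never at the other 2. MNT was called in all 6 at 3 of its 4 windows, and a single merged MACS2 region of 11301 bp ran over these, from 2294505 to 2305805 on chromosome 17. The highest MACS2 folds were 9.45 to 21.5 for MXD4, 13.1 to 35.9 for MXI1 and 13.8 to 41.1 for MNT. Between its 2 called windows MXI1 also held MACS2 regions centred 9.73 and 14.8 kb past the first start that all 6 benchmark libraries shared.

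MLX, which links the network to nutrient sensing, had the fullest start window of the list by SEACR, with 100% covered in 5 of the 6 benchmark libraries and 95.3% in ab4729 replicate 2. MACS2 covered 43.4% to 93.4% of it (median 60.3%), and the merged SEACR region was 19366 bp wide and ran past both ends of the gene. MGA stood at the other end with 2.196% to 8.20% by MACS2. Its 15 transcript starts spread over 8 windows, and 1 of them, under a region centred 40.1 kb past the first start by either caller, was called while the other 7 were called in no list. That window carried an H3K27ac peak in 6 of 6 benchmark libraries by either caller and in 7 of the 25 other libraries by SEACR. A lncRNA, ENSG00000260926, starts 8 bp from an MGA start and was named after the values were seen. No H3K27me3 library called MNT, MLX, MXD4 or MGA.

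**Figure D3:**
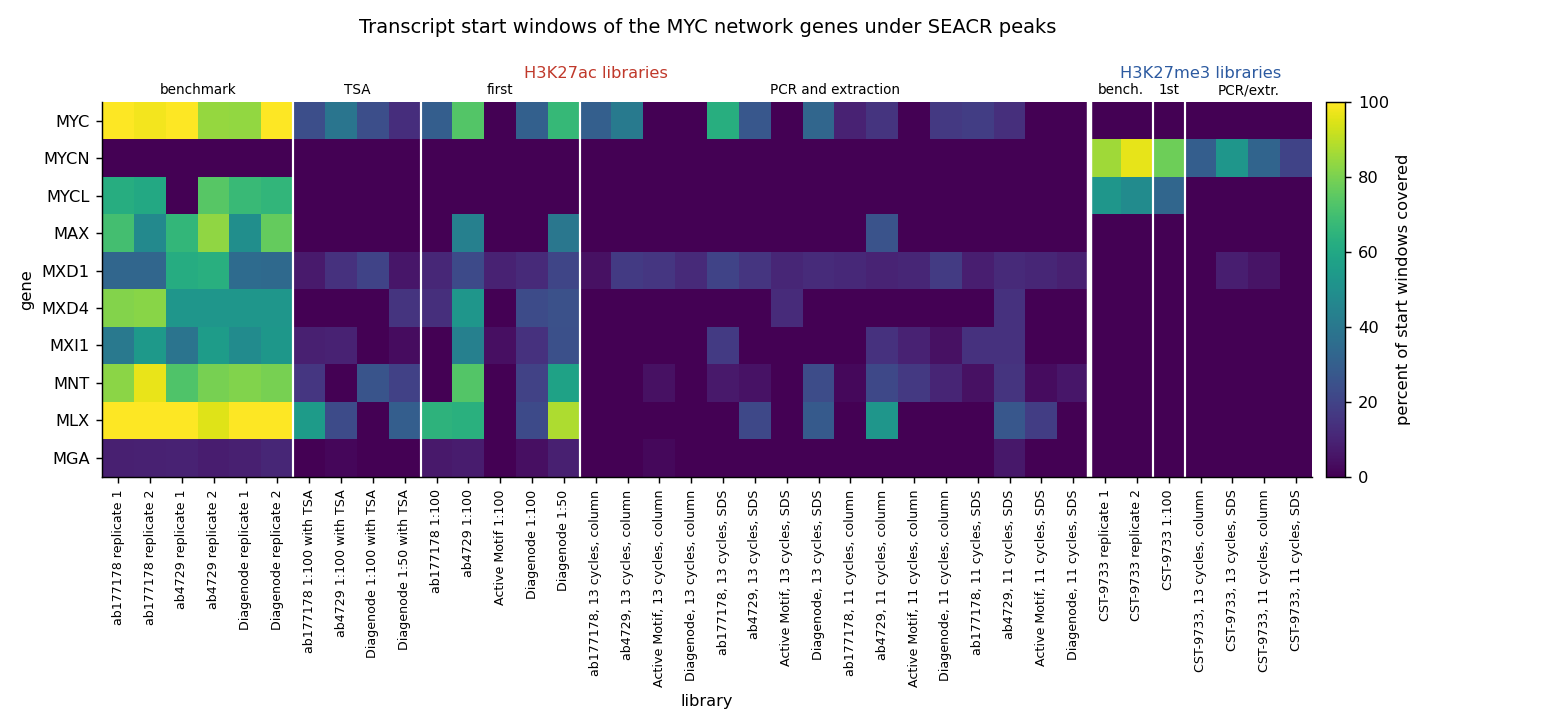
Percent of start windows under SEACR peaks for the 10 genes (rows) in the 38 libraries (columns), with H3K27ac libraries left of the thick white line and H3K27me3 libraries right of it. MXD1 is above 0 in all 31 H3K27ac libraries and MYCN in all 7 H3K27me3 libraries, while MAX, MXD4 and MGA are at 0 in most libraries outside the benchmark and first sets.

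The marks were compared gene by gene in the PCR and extraction set, whose lists the authors brought to one read depth. The measure was the percent of the whole gene region (body and start windows) under SEACR peaks in 16 H3K27ac against 4 H3K27me3 libraries, with an exact two-sided permutation of the mark labels over 4845 arrangements and Benjamini-Hochberg adjustment over the 15553 protein-coding genes that had a covered base. In this test 9.05% of genes passed with H3K27ac higher and 28.8% with H3K27me3 higher. Among the members 1 passed in each direction, 7 did not pass, and MYCL had no covered base.

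MXD1 was the member that passed with H3K27ac higher, at 2.69 ± 0.98% of its gene region in H3K27ac libraries and 0.67 ± 0.81% in H3K27me3 libraries (SD, n = 16 and 4; adjusted p = 0.0038, exact permutation). Scored as any peak or none, MXD1 no longer passed the exact permutation test (adjusted p = 0.072), and 16 of 16 H3K27ac libraries and 2 of 4 H3K27me3 libraries had one. MNT passed when scored that way (adjusted p = 0.039, exact permutation). MYCN passed the other way, with 0% in H3K27ac libraries and 35.8 ± 13.4% in H3K27me3 libraries (adjusted p = 0.00084, exact permutation), and 0.000206 is the smallest unadjusted p that the arrangements can give. The other members tested had H3K27ac means above 0 and no H3K27me3 peak, but with large spread. MYC was at 12.9 ± 13.2% in H3K27ac libraries (adjusted p = 0.16), MNT at 7.14 ± 6.75% (0.11), MLX at 4.83 ± 8.25% (0.54) and MAX at 0.91 ± 0.76% (0.10), by the same exact permutation test. The median difference, H3K27ac minus H3K27me3, was 1.19 percentage points over the 9 members tested and 0.22 over all genes tested.

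MYC itself had an H3K27ac peak at its start in 24 of 31 libraries by SEACR and in 10 of 15 by MACS2, and no H3K27me3 peak at its start or in its body in any list. SEACR covered 100% and 98.3% of the start windows in the ab177178 benchmark replicates, 100% and 84.0% with ab4729 and 83.9% and 100% with Diagenode, and MACS2 covered 63.3% to 74.5%. The merged MACS2 region was 4779 bp wide. The antisense lncRNA CASC11 starts 86 bp from a MYC start, within the same peak.

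Coverage of the MYC start outside the benchmark set varied between antibodies, which is given without a test. In the first set SEACR covered 30.0% with ab177178, 73.4% with ab4729, 30.5% and 67.0% with Diagenode at 1:100 and 1:50, and none with Active Motif. In the PCR and extraction set all 4 ab177178 and all 4 ab4729 libraries had a peak there (9.62% to 62.7%, and 13.4% to 40.9%), 2 of the 4 Diagenode libraries did (16.4% and 33.1%) and none of the 4 Active Motif libraries did. The Active Motif libraries still called MXD1 in 4 of 4. The ranges of the other 3 antibodies overlapped. In the first set the Active Motif SEACR list covered 3.22 Mb of the genome, against 12.1 to 43.4 Mb for the other H3K27ac lists. In the PCR and extraction set the Active Motif lists covered 3.62 to 8.55 Mb and those of the other antibodies 3.43 to 11.55 Mb. The part of list size in the missing MYC calls was not tested.

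The 2 Mb downstream of MYC hold the lncRNA PVT1, which shares the MYC neighbourhood and its amplifications, and CCDC26, a lncRNA over known blood-cell enhancers of MYC. In this region, 128748000 to 130750000 on chromosome 8 (hg19), H3K27ac covered 5.13% and 5.36% with ab177178, 5.13% and 7.504% with ab4729 and 5.65% and 7.97% with Diagenode by MACS2, and H3K27me3 covered 0.14% and 0.055% with CST-9733. By SEACR the H3K27ac values were 9.70%, 10.4%, 12.2%, 11.98%, 10.3% and 13.5% in the same order and the H3K27me3 values 0.14% and 0.28%. All 6 H3K27ac libraries stood above both H3K27me3 libraries. The difference was 6.02 percentage points by MACS2 and 11.1 by SEACR (exact permutation over 8 libraries, two-sided, p = 0.036 for each caller, the smallest that 28 arrangements allow).

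The H3K27ac lists covered less of the genome as a whole than the H3K27me3 lists. Peaks covered 1.08 ± 0.25% of the genome in the H3K27ac MACS2 lists and 6.62 ± 0.53% in the H3K27me3 lists (SD, n = 6 and 2), and the region was covered 5.91 times as densely as the genome by H3K27ac and 0.014 times as densely by H3K27me3. SEACR gave ratios of 5.91 and 0.029. When the genome was cut into 1534 tiles of the same length, 1.83% of them had at least the H3K27ac coverage of the MYC region by MACS2 and 2.28% by SEACR. The median tile was covered to 0.53% by MACS2 and 0.91% by SEACR. No input library was among the lists, so the copy number of the region in K562 cells was not measured.

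The same order of the marks was seen in the PCR and extraction set, which had its own libraries. H3K27ac SEACR peaks covered 0.82% to 3.42% of the region (median 1.33%, 16 libraries) and H3K27me3 peaks 0.090% to 0.29% (4 libraries), with no overlap between the marks (difference 1.43 percentage points, exact permutation, two-sided, p = 0.0031). All 4 Active Motif libraries, in which MYC had no peak at its start, had peaks in the region, over 0.82% to 1.23% of it.

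**Figure D4:**
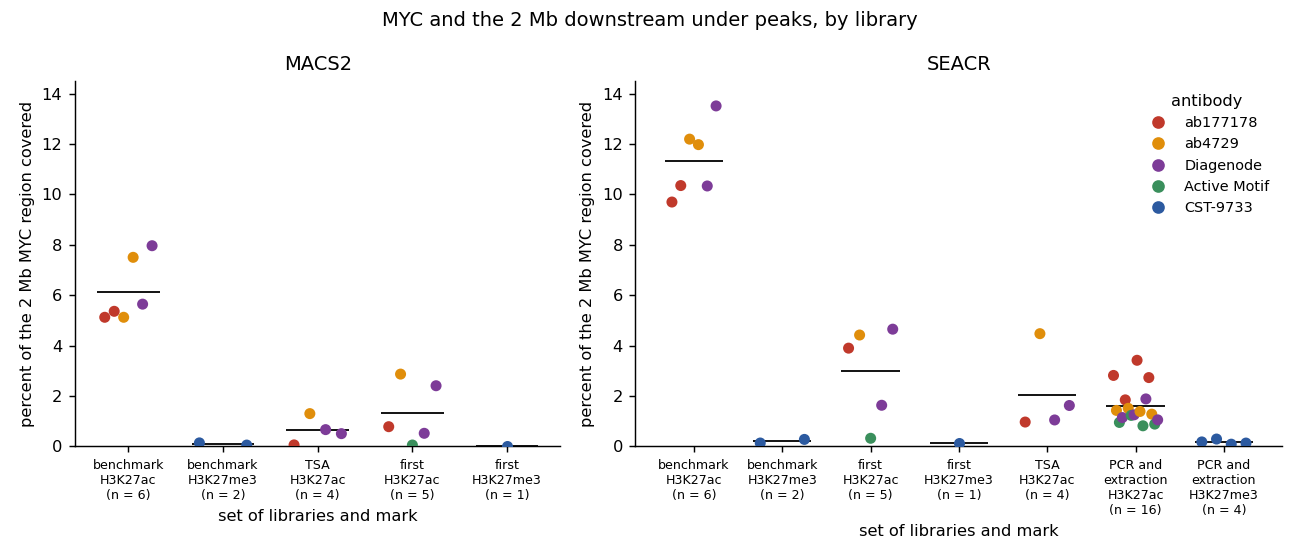
Percent of MYC and the 2 Mb downstream covered by peaks in each library, by MACS2 (left) and SEACR (right), with points coloured by antibody and a line at the mean of each set and mark. The H3K27ac points lie above the H3K27me3 points of the same set, by 6.02 percentage points in the mean by MACS2 and 11.1 by SEACR in the benchmark set.

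H3K27ac was concentrated in PVT1. The PVT1 body makes up 19.6% of the length of the region and held 69.1 ± 3.9% of the bases under H3K27ac peaks by MACS2 and 71.6 ± 4.1% by SEACR (SD, n = 6). Peaks covered 21.4 ± 3.9% of PVT1 by MACS2 and 41.4 ± 5.0% by SEACR, and no benchmark H3K27me3 peak fell in it. The 50074 bp between MYC and PVT1 had less H3K27ac than PVT1, with 0.34 ± 0.29% by MACS2 and 1.78 ± 1.19% by SEACR. H3K27me3 came nearest to MYC there, with 2.36% by MACS2 and 1.85% by SEACR in CST-9733 replicate 1. In replicate 2 it was 0% by MACS2 and 3.78% by SEACR, so the callers put the 2 replicates in opposite order.

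Of 118 merged MACS2 regions, 38 were called in all 6 H3K27ac benchmark libraries, and these held 64.8% of the merged length. Of them 25 lay in PVT1 and 8 overlapped CCDC26, and none lay outside an annotated gene. The strongest, 128907757 to 128915624 on chromosome 8, lay 164 kb past the MYC start inside PVT1, with folds of 73.8 and 60.3 with ab177178, 50.2 and 79.0 with ab4729 and 64.9 and 77.9 with Diagenode. This was above the fold at the MYC start in every one of the 6 libraries. The SEACR peaks of the 6 libraries over the same stretch merged into a region of 49730 bp, from 128895108 to 128944837. Single libraries had 1 or 3 peaks in it, over 35207 to 41480 bp. The merged region overlaps the lncRNA PVT1 alone. All 31 H3K27ac libraries and 1 of 7 H3K27me3 libraries had a SEACR peak somewhere in it.

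Beyond PVT1 the H3K27ac coverage was low until the far end. LINC00824 was covered to 1.77 ± 0.59% by MACS2 and the 69519 bp between LINC00824 and CCDC26 held no peak of either mark in the benchmark lists. Within CCDC26, which spans 1049572 bp, coverage was 2.18 ± 0.77%, and a region at 130593804 to 130597331, 1848 kb past the MYC start, had folds of 27.97 and 24.5 with ab177178, 34.2 and 42.6 with ab4729 and 41.8 and 54.2 with Diagenode. The last 53984 bp, past CCDC26, were covered to 15.2 ± 3.9%, over the lncRNA ENSG00000285108. Other genes under a region called in at least 4 libraries were LINC02912, ENSG00000286034 and ENSG00000253926.

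**Figure D5:**
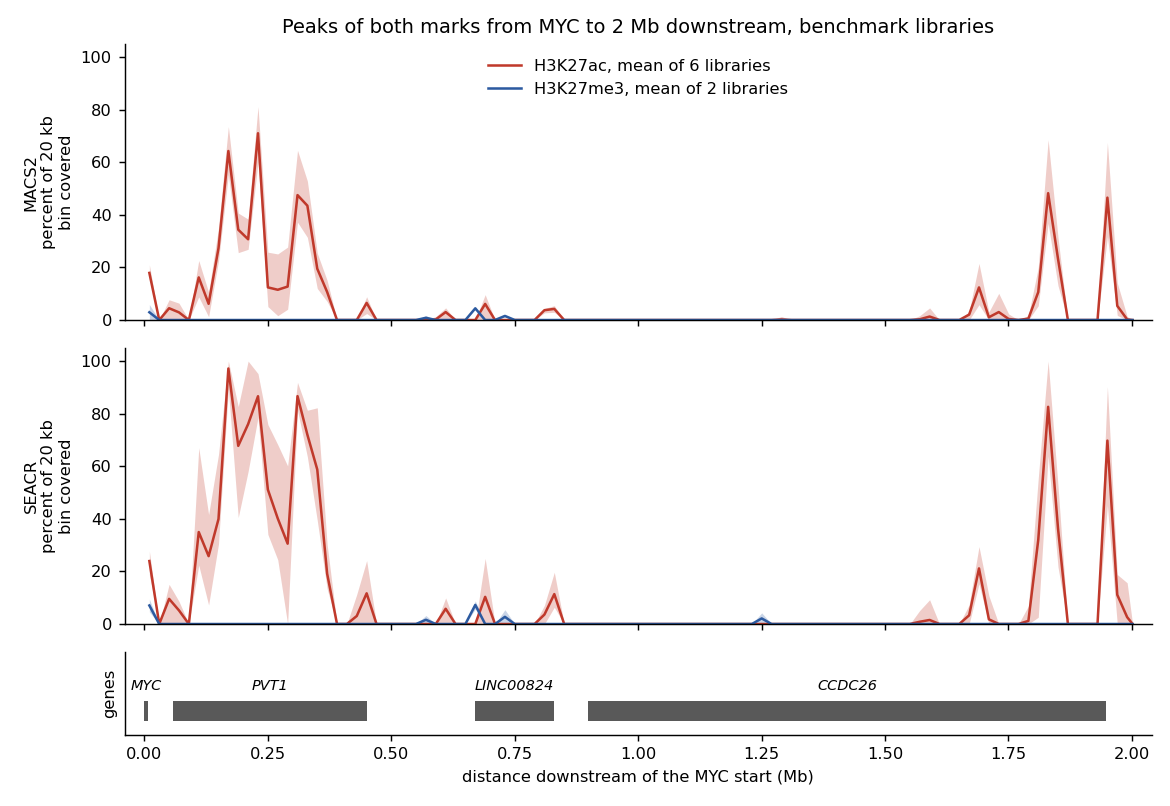
Percent of each 20 kb bin covered by peaks against the distance downstream of the MYC start in Mb, as the mean (line) and range (band) of 6 H3K27ac libraries (red) and 2 H3K27me3 libraries (blue), by MACS2 above and SEACR in the middle, with genes as bars below. H3K27ac rises over PVT1, which held 69.1% of the covered bases by MACS2, and again at the far end of CCDC26.

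The regions shared by the benchmark libraries recurred unevenly elsewhere. Of 15 SEACR regions called in all 6, 3 were also called in all 25 other H3K27ac libraries, namely 2 in PVT1 and 1 that overlaps CCDC26 and ENSG00000285108, and 8 were called in at least 13 of those libraries. The region at the MYC start was called in 18 of 25. One region in PVT1, centred 268 kb past the MYC start, was called in none of the 25. H3K27ac SEACR peaks covered 0.24 ± 0.09% of the genome in the PCR and extraction set and 2.00 ± 0.41% in the benchmark set (SD, n = 16 and 6), and the part of this in the missing calls was not tested.

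Caller and library preparation moved the coverage of the region in different degrees. MACS2 covered less of it than SEACR in 6 of 6 H3K27ac benchmark libraries (6.12 ± 1.27% and 11.3 ± 1.5%, SD; exact sign flip over 6 libraries, p = 0.031, the smallest possible). Counted as peaks the order turned, with 94.0 in MACS2 lists and 31.3 in SEACR lists, and relative to the coverage of the whole genome the callers were at 5.91 each.

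In percent of the region covered, no difference passed for the number of PCR cycles or the extraction. Libraries of 13 cycles covered 1.68 ± 0.94% of the region and those of 11 cycles 1.52 ± 0.59% (SD, 8 pairs of one antibody and extraction; mean difference 0.16 ± 0.50 percentage points, higher in 3 of 8 pairs, exact sign flip p = 0.38). Column libraries covered 1.48 ± 0.58% and SDS libraries 1.73 ± 0.93% (8 pairs; mean difference -0.26 ± 0.49, higher in 4 of 8 pairs, exact sign flip p = 0.23). Counted as peaks the extraction difference did pass, with 23 peaks in column libraries and 28.5 in SDS libraries (exact sign flip p = 0.039). No other setting of this comparison passed, and this p was not adjusted for the number of settings. At member starts, MNT had a peak in 4 of 8 libraries of 13 cycles and 8 of 8 of 11 cycles, and MXI1 in 1 and 5. The other members differed little, with MYC in 5 and 5, MXD1 in 8 and 8, MLX in 2 and 3 and MAX in 0 and 1. MXD4 and MGA had a peak in 1 and 1, and MYCN and MYCL in 0 and 0. These values are given without a test and without the same counts over all genes.

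With TSA the region was covered to 0.64 ± 0.51% by MACS2 and 2.03 ± 1.66% by SEACR, and without TSA, in the first library of the same antibody and dilution, to 1.65 ± 1.17% and 3.65 ± 1.38% (SD, 4 pairs). It was lower with TSA in 3 of 4 pairs by each caller (exact sign flip, p = 0.25 for each, and 4 pairs cannot pass 0.05). The lists with TSA were at a reduced depth, and relative to the whole genome the order turned, with a density of 6.47 with TSA and 4.29 without by MACS2 and 5.56 and 4.06 by SEACR. Depth and treatment cannot be told apart here. At the MYC start, SEACR covered 13.1% to 38.7% with TSA and 30.0% to 73.4% without, lower in 4 of 4 pairs. The MXD4, MLX and MGA starts were also lower in 4 of 4, and those of MXD1 and MXI1 in 3 and higher in 1. MNT was higher in 2 and lower in 2, MAX was lower in 2 and equal in 2, and MYCN and MYCL were equal in all 4. The same was not counted over all genes.

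The genes around the network were read from lists chosen for their known roles, with earlier results of these data known. Counts over these lists, and over the markers further below, therefore describe the lists and are not independent of the data. Of 7 network relatives, 3 had H3K27ac at a start in all 6 benchmark libraries by both callers, namely MXD3, MLXIP and PVT1. This share is near that of all protein-coding genes, 43.9% by MACS2 and 36.7% by SEACR. MLXIPL, the liver glucose sensor, had H3K27me3 at a start in both libraries together with H3K27ac in 5 of 6 by MACS2 and none by SEACR. MYCNOS, which shares the MYCN start windows, had H3K27me3 in both and no H3K27ac. These were the 2 of 7 relatives with H3K27me3 in both, against 26.3% and 25.9% of all protein-coding genes. None of the 4 relatives tested by mark in the PCR and extraction set passed.

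Of 17 cofactors and chromatin partners, 13 had H3K27ac at a start in all 6 libraries by MACS2 and 12 by SEACR, against 43.9% and 36.7% of all protein-coding genes, and none had H3K27me3 in both, against 26.3% and 25.9%. By mark, 2 of the 15 tested passed with H3K27ac higher, near the 9.05% of all genes tested. They were SIN3A, the scaffold of the corepressor that MXD proteins recruit (2.61% of the gene region in H3K27ac libraries and 0% in H3K27me3 libraries, adjusted p = 0.0046, exact permutation as for the members), and ACTL6A, an actin-like subunit of MYC-associated complexes (3.26% and 0.51%, adjusted p = 0.028, exact permutation). E2F6, HCFC1 and HDAC1 did not pass. Of 12 genes of MYC turnover, 10 by MACS2 and 9 by SEACR were called in all 6, to be read against the same 43.9% and 36.7%. By mark, 1 of the 11 tested passed with H3K27ac higher, which is near the share over all genes. This was AURKA, a kinase that stabilises MYCN, with 5.01% in H3K27ac libraries and 0.46% in H3K27me3 libraries (adjusted p = 0.021, exact permutation). CIP2A, FBXW7 and GSK3B did not.

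Of 18 well known MYC targets, 17 had H3K27ac at a start in all 6 benchmark libraries by both callers, again against 43.9% and 36.7% of all protein-coding genes. By mark, 4 of the 17 tested passed with H3K27ac higher, namely EIF4E, LDHA, NPM1 and PTMA, and 2 with H3K27me3 higher, TERT and CDC25A, against 9.05% and 28.8% of all genes tested. PTMA and TERT were named after their values were seen. TERT, the telomerase subunit, was at 0.63% in H3K27ac libraries and 35.7% in H3K27me3 libraries (adjusted p = 0.00084, exact permutation) and had no H3K27ac peak at a start in the benchmark set. CDC25A, a cell cycle phosphatase, was at 0.24% and 4.64% (adjusted p = 0.011, exact permutation), although its starts carried H3K27ac in all 6 benchmark libraries. CAD, CCNB1 and CCND2 did not pass, and CCND2 held H3K27ac in all 6 and H3K27me3 in both.

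The cell line was checked against its markers. Of 11 erythroid and K562 genes, 9 had H3K27ac at a start in all 6 benchmark libraries by either caller and none had H3K27me3 in both. Of 14 markers of B cells, T cells, liver and neurons, 1 had H3K27ac in all 6 by MACS2 and none by SEACR. Of these 14, 5 had H3K27me3 in both by either caller. Among all protein-coding genes, 43.9% by MACS2 and 36.7% by SEACR had H3K27ac in all 6. The share with H3K27me3 in both was 26.3% and 25.9%.

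Over the 31 H3K27ac libraries, the genes whose gene region followed that of MYC most closely in percent covered by SEACR peaks were TBCK (Pearson r 0.956), HNRNPF (0.956) and STAT3 (0.955), of 5834 genes with a covered base in at least 16 libraries. The points share antibodies, sets and depth, and no p is given. TBCK was covered over at most 1.97% of its region, STAT3 over 18.0% and HNRNPF over 94.2%.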

How the data were processed

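Peaks came as 56 lists (18 of MACS2, 38 of SEACR), and for each of them the authors used a single library. Reads had been trimmed with Trim Galore 0.6.6, mapped by Bowtie2 2.2.9 on hg19 and handled with Picard 2.6.0, SAMtools 1.3.1 and bedtools 2.25.0. The deposited MACS2 files give a score, a fold (ratio) over background and −log10 p and q values per peak, and the deposited SEACR files give the total signal and the highest coverage of each peak. H3K27ac and H3K27me3 lists had different thresholds, and TSA and PCR and extraction lists came from downsampled reads. The lists hold no read totals, so the depth is unknown from the files. The read totals that the study gives were not used here, and no counting interval is given.

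Autosomal, X and Y peaks were used (1331138), and 11008 on other contigs were left out. Transcript starts came from GENCODE v44 lifted to GRCh37. A gene was called in a library where a peak overlapped its start windows by at least 1 bp. Groups followed the labels, and differences were tested by exact permutation or sign flip, two-sided. The 2 benchmark replicates of an antibody are named as biological replicates in the study's reporting summary. All other conditions have 1 library, so p-values there measure the spread between libraries. At most 1.25% of peaks had identical bounds in 2 lists of one caller and mark. The functions were tested on simulated data. The named genes were the members, genes under recurrent regions, genes sharing a start window, the 3 most like MYC and, of each list, up to 4 whose call differed and the first 3 others by alphabet, and names outside this rule are marked as such. Likeness was planned over all H3K27ac libraries, which number 31. The members and lists were chosen with earlier results of these data known. Python 3.11.15, numpy 2.4.6 and matplotlib 3.10.9 were used, with bedtools 2.31.1 for the check of overlaps. The name of 1 marker gene and 1 promoter sequence are not reported here.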

Additional observations from a re-analysis of the deposited data

Results flagged for a closer look

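Of 57 sets of 4 to 6 library values looked at, 9 held 1 library that stood apart from the rest by Dixon's criterion. In 6 of the 9 all other values were tied at 0% or 100%, where any single different library meets the criterion, so the rate of about 1 in 20 that chance gives holds only for sets without such ties. In the H3K27ac benchmark libraries, ab4729 replicate 1 was lowest by MACS2 at the MXI1 starts (21.3% of the windows, next lowest 31.0%) and the MGA starts (2.196%, next 6.41%), and by SEACR at the MYCL starts (0%, next 60.4%). ab4729 replicate 2 was lowest at the MLX start by SEACR (95.3%, with 100% in the other libraries). In the TSA libraries, Diagenode 1:100 alone had a MACS2 peak at the MYC start (5.98%), the MYCL start (9.73%) and the MLX start (10.1%). By SEACR, Diagenode 1:50 alone had a peak at the MXD4 starts (15.2%) and ab4729 at the MGA starts (1.78%).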

How the results depend on the processing

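Of 180 values under other settings, 156 kept their direction and their side of the threshold (or, for counts, stayed within 1.5 times), 13 no longer passed, 3 were counts that fell further, 2 passed anew and 6 turned. With the replicate block the difference between the marks in the MYC region kept its size (6.02 by MACS2, 11.1 by SEACR) but had p = 0.0625 by exact permutation, the numbers naming replicates within each antibody. Leaving out 1 library gave 5.65 to 6.22 by MACS2 and 10.7 to 11.5 by SEACR, and without either CST-9733 replicate the exact permutation p was 0.14, since a lone H3K27me3 library allows no less. The difference between callers was -5.37 to -4.85 without 1 library (exact p = 0.0625), 0.0024 as density over the genome and 62.7 as number of peaks. For 13 against 11 cycles it was -0.035 without ab177178, and for column against SDS extraction -5.5 peaks (exact p = 0.039). With against without TSA it was 2.18 by MACS2 and 1.51 by SEACR as density and 5.75 as number of SEACR peaks, and -1.40 to -0.71 by MACS2 and -2.18 to -1.15 by SEACR without 1 pair. With the 50% of SEACR peaks of highest signal, 649 genes had H3K27ac higher, against 1407. Members with H3K27me3 in both libraries numbered 0 at a MACS2 −log10 q of 10 or more and 1 with those SEACR peaks. Without 1 library they numbered 2 to 3 by MACS2 and 2 by SEACR, and members with H3K27ac in every library 9 by MACS2 and 8 to 9 by SEACR. The cause was not tested. Depth is unknown from the lists, so a start without a peak may lie below what a library could show.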
